A study of Mus musculus with 2 samples.

Results

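The genes described here are 9 transcription factors of the lung epithelium, *Nkx2-1*, *Foxa1*, *Foxa2*, *Gata6*, *Elf3*, *Sox2*, *Sox9*, *Tfcp2l1* and *Grhl2*. They were chosen by symbol, and all 9 were found among the 32285 genes counted in both libraries. The data were droplet-based 3′ scRNA-Seq of mouse lung, in which each captured RNA molecule carries a unique molecular identifier (UMI) and is counted once. One library came from Cebpa fl/fl mice, labelled Cebpa FF, in which both copies of *Cebpa* are flanked by loxP sites. The other came from Cebpa ΔSftpc mice, labelled Cebpa KO, which carry the same floxed allele and in addition CreERT2 driven by *Sftpc*, so that tamoxifen starts recombination in cells that express *Sftpc*, mostly alveolar type 2 (AT2) cells. The mice had a first round of 5 daily injections of tamoxifen at 75 mg/kg, and lungs were taken 26 weeks after the first injection. By the methods, mice analysed over 3 months after that round also had a further round of weekly injections. The methods give 3 mice per genotype, and mice of 3 months of age unless stated otherwise.

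With 1 library per genotype and no mark of the mouse in a barcode, there was no replicate of either genotype. No difference between the libraries could be tested, and the 95% intervals given cover counting error only, not mice or libraries. Barcodes numbered 11721 (69200420 UMIs) for Cebpa fl/fl and 13373 (64697396 UMIs) for Cebpa ΔSftpc. Cells of at least 1000 UMIs that passed the filter, 10582 and 11733 in number, had medians of 5184 and 3428 UMIs. The libraries shared 45 barcodes. The labels speak of sorted cells and the methods of whole lung suspensions, so a share of cells is one of the cells captured.

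Transcription factors of the lung epithelium act in overlapping layers. The homeodomain factor NKX2-1 marks the lung lineage from its start and binds the promoters of surfactant genes. The forkhead factors FOXA1 and FOXA2 open closed chromatin, and GATA6 is a zinc finger factor of endoderm and mesoderm that binds beside them. In the developing lung, SOX2 marks the airway and SOX9 the distal tips from which alveoli form. ELF3 and the grainyhead factor GRHL2 act on epithelial junction genes, and TFCP2L1 belongs to the same wider family as GRHL2. C/EBPα, the product of the deleted gene, works in AT2 cells next to these factors.

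Promoter sequences show where the members with the clearest patterns start. RefSeq sequence of GRCm38.p6 was matched for 6 of the 9 members. The 250 bases before the start, 5′ to 3′ on the strand of the gene, are given for *Nkx2-1*, which was found in all 4 epithelial types, for *Tfcp2l1*, found mainly in AT2 cells, and for *Sox2*, which was found mainly in ciliated cells. They cover chr12:56536909-56537158 (minus strand), chr1:118627695-118627944 (plus strand) and chr3:34649745-34649994 (plus strand). Capitals mark letters that match the C/EBP motif.
Nkx2-1: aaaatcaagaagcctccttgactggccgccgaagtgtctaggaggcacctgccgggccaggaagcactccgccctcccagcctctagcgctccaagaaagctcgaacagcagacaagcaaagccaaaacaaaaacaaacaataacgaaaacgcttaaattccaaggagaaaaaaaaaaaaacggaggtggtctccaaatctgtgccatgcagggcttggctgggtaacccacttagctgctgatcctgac
Tfcp2l1: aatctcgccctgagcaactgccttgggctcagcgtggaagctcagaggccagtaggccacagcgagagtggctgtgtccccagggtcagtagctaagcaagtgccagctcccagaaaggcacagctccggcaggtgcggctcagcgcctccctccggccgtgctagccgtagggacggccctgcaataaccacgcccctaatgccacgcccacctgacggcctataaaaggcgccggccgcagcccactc
Sox2: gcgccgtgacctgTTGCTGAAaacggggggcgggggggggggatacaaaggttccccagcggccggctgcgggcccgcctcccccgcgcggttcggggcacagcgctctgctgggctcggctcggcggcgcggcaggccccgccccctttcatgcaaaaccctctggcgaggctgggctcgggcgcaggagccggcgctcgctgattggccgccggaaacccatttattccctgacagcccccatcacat

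Letters of 6 motifs were searched on both strands of the 8 RefSeq windows of these 6 members, from 250 bases before to 50 bases after a start. The C/EBP letters TTNNGCAA were found in the *Sox2* window alone, on the opposite strand, 237 bases before the start, where the strand shown reads TTGCTGAA, and in 10.8% of all 32851 windows. The *Sox2* window also held the grainyhead letters AACNNGTT, 16 bases after the start and so beyond the run shown (4.2% of all windows). The *Foxa1* window held the forkhead letters TGTTTAC on the opposite strand, 141 bases before the start (3.65% of all windows). One of the *Foxa2* windows held the GATA letters AGATAA 183 bases before its start (11.2% of all windows). The NKX2-1 letters CACTTGA and the SOX letters CATTGT were found in none of the 8 windows, against 3.06% and 12.6% of all windows. The *Nkx2-1*, *Elf3* and *Tfcp2l1* windows held none of the 6 motifs. A match is a description of the letters and no sign of binding.

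Cell types were set by limits on raw counts of markers, with no member among them. AT2 cells were taken by *Sftpc* and a further AT2 marker, AT1 cells by *Ager* with *Rtkn2* or *Akap5*, ciliated cells by at least 3 of 8 cilium genes, and secretory cells by secretoglobins. Cells with markers of endothelium, fibroblasts or leukocytes were left out. The AT2 gate held 396 Cebpa fl/fl cells (3.74%, 3.39–4.12) and 93 Cebpa ΔSftpc cells (0.793%, 0.64–0.97). This difference rests largely on the limit on other lineages, without which there were 441 (4.17%) and 338 (2.88%) cells. The AT1 gate held 60 and 9 cells, the ciliated gate 179 and 77, and the secretory gate 10 and 7. Depth per cell moved with genotype. The AT2 cells had medians of 20579 and 4533 UMIs and the ciliated cells of 16627 and 2739.

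Markers outside the gates were checked in each type. The surfactant gene *Sftpb* was at 10600 and 9660 CPM (the UMIs of a gene scaled by all UMIs of the cells) in the Cebpa fl/fl and Cebpa ΔSftpc AT2 cells, and the cilium regulator *Foxj1* at 765 and 761 CPM in ciliated cells. The AT1 label was met less well in the Cebpa ΔSftpc library, where *Hopx* was at 2220 CPM against 6990, and *Pdpn* at 258 against 929. Of the 9 Cebpa ΔSftpc AT1 cells, 2 held 480 of the 486 *Sftpb* UMIs and no *Rtkn2* UMI. The secretory label rests on secretoglobins, which made up 66.9% and 65.3% of the UMIs there, beside the airway gene *Cyp2f2* at 1490 and 4410 CPM. The neutrophil gene *S100a8* was at 0.383 CPM in the Cebpa fl/fl and 151 CPM in the Cebpa ΔSftpc AT2 cells. This difference was not particular to AT2 cells, with 2.06 and 125 CPM in endothelial cells and 1.08 and 117 CPM in fibroblasts. The part of *S100a8* in the results was not tested.

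The targeted gene itself was at 156 CPM (1219 UMIs) in the Cebpa fl/fl AT2 cells and 138 CPM (155 UMIs) in the Cebpa ΔSftpc ones, a log2 ratio of −0.18 (−0.43 to 0.06). By summed UMIs, the *Cebpa* levels of the AT2 gate thus did not differ beyond counting error. This holds for the gated cells alone. The gate asks for at least 1% *Sftpc*, and without the limit on other lineages it held 338 Cebpa ΔSftpc cells in place of 93. The 16 Cebpa ΔSftpc cells high in *Sftpb* and low in *Sftpc*, described below, had 0 *Cebpa* UMIs. Shares of cells were lower in the Cebpa ΔSftpc library when each cell was thinned to an equal number of UMIs, as described below. A *Cebpa* UMI was then found in 15.2% (11.8–19.1, 60 of 396) of the Cebpa fl/fl AT2 cells. In the Cebpa ΔSftpc AT2 cells the share was 8.6% (3.79–16.2, 8 of 93). These intervals overlap, and the difference was not tested. *Cebpa* (chr7:35119293-35121928, plus strand of GRCm38) was at 42.2 and 37.3 CPM in ciliated cells and had 0 UMIs in the AT1 cells of both libraries. Which stretch of the gene is lost on recombination is not given in the sources used here.

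*Nkx2-1* (ENSMUSG00000001496, chr12:56531958-56536908, minus strand of GRCm38) was found in every epithelial type. In the Cebpa fl/fl library its level, as CPM of summed UMIs, was 364 (351–377, 2848 UMIs) in AT2 cells, 322 (268–384, 123 UMIs) in AT1 cells and 166 (494 UMIs) in ciliated cells. AT2 and AT1 levels lay within counting error of each other, with a log2 ratio of 0.18 (−0.08 to 0.45). The AT2 level was 2.2-fold that of ciliated cells (log2 1.14). In the Cebpa ΔSftpc library the same comparison gave 2.74-fold (log2 1.46, 1.14 to 1.78). Against endothelial cells of the Cebpa fl/fl library, which should lack NKX2-1, the AT2 level was 97.1-fold higher.

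*Foxa1* (ENSMUSG00000035451) lies at chr12:57540628-57546916 on the minus strand, 1.01 megabases from *Nkx2-1*. Its levels in the Cebpa fl/fl library were 51.6 CPM (404 UMIs) in AT2 cells and 71.8 CPM (214 UMIs) in ciliated cells, against 6 UMIs in all AT1 cells. The ciliated level was 1.39-fold that of AT2 cells, and the AT2 level 3.29-fold that of AT1 cells (log2 1.72, 0.58 to 3.17). *Foxa2* (ENSMUSG00000037025, chr2:148042877-148046969, minus strand) had another order, with 84.4 CPM (661 UMIs) in AT2 cells, 144 CPM (55 UMIs) in AT1 cells and 151 CPM (450 UMIs) in ciliated cells. AT1 and ciliated cells did not differ beyond counting error (log2 −0.07, −0.50 to 0.34), and their levels were 1.71-fold and 1.79-fold that of AT2 cells. In the Cebpa fl/fl AT1 cells, *Foxa2* was thus found and *Foxa1* was near the limit of what could be counted. The Cebpa ΔSftpc AT1 cells had 0 and 3 UMIs of them.

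*Gata6* (ENSMUSG00000005836) was at 296 CPM (113 UMIs) in AT1 cells, 87.9 CPM (688 UMIs) in AT2 cells and 78.1 CPM (233 UMIs) in ciliated cells of the Cebpa fl/fl library. The AT1 level was 3.37-fold that of AT2 cells and 3.79-fold that of ciliated cells (log2 1.92, 1.58 to 2.25). AT2 and ciliated levels did not differ beyond counting error (log2 0.17, −0.05 to 0.39). *Gata6* was also found outside the epithelium, at 89.1 CPM in fibroblasts, 89.1 CPM in smooth muscle and 41 CPM in endothelial cells. The AT2 level was 2.14-fold that of endothelial cells, a smaller ratio than the 38.8-fold to 97.1-fold of the 6 other members counted in AT2 cells.

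*Elf3* (ENSMUSG00000003051, chr1:135253575-135258568, minus strand) was at 41.6 CPM (326 UMIs) in AT2 cells and 56.7 CPM (169 UMIs) in ciliated cells of the Cebpa fl/fl library, with 6 UMIs in AT1 cells. *Grhl2* (ENSMUSG00000022286, chr15:37233036-37363569, plus strand) was at 22.7 CPM (178 UMIs), 56.7 CPM (169 UMIs) and 20.9 CPM (8 UMIs) in AT2, ciliated and AT1 cells. Among AT2, AT1 and ciliated cells of this library, both barrier factors were thus highest in ciliated cells. The ciliated level was 1.36-fold that of AT2 cells for *Elf3* and 2.49-fold for *Grhl2*. AT2 and AT1 levels of *Grhl2* did not differ beyond counting error (log2 0.12, −0.89 to 1.35). In the Cebpa ΔSftpc library the ciliated level of *Grhl2* was 5.85-fold that of AT2 cells. *Elf3* did not differ there beyond counting error (log2 of AT2 over ciliated cells −0.19, −0.78 to 0.41).

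*Tfcp2l1* (ENSMUSG00000026380, chr1:118627945-118685168, plus strand) set AT2 cells apart from ciliated cells, and in the Cebpa fl/fl library also from AT1 cells. Its level in the Cebpa fl/fl library was 160 CPM (1256 UMIs) in AT2 cells, against 6.37 CPM (19 UMIs) in ciliated cells and 2 UMIs in AT1 cells. The AT2 level was 25.2-fold that of ciliated cells (log2 4.65, 4.01 to 5.39). In the Cebpa ΔSftpc library the ratio was 24.5-fold (log2 4.62, 3.47 to 6.08). No other member had a ratio of AT2 to ciliated cells above 2.2-fold in the Cebpa fl/fl library.

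*Sox2* (ENSMUSG00000074637, chr3:34650405-34652461, plus strand) had the opposite pattern. It was at 186 CPM (171–202, 554 UMIs) in Cebpa fl/fl ciliated cells and 2.43 CPM (19 UMIs) in Cebpa fl/fl AT2 cells, and had 1 UMI in AT1 cells. The ciliated level was 76.5-fold that of AT2 cells there and 70.5-fold in the Cebpa ΔSftpc library. *Sox9* (ENSMUSG00000000567, chr11:112782224-112787760, plus strand) was nearly absent from the epithelial gates, with 2 UMIs in AT2, 9 in ciliated and 0 in AT1 cells of the Cebpa fl/fl library. Fibroblasts had 37.1 CPM of it, 241 UMIs in 100 of 868 cells. The level of 60.6 CPM in pericytes came from 27 UMIs that were all in 1 cell, and that of 57.7 CPM in smooth muscle from 11 UMIs in 2 cells.

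**Figure D1:**
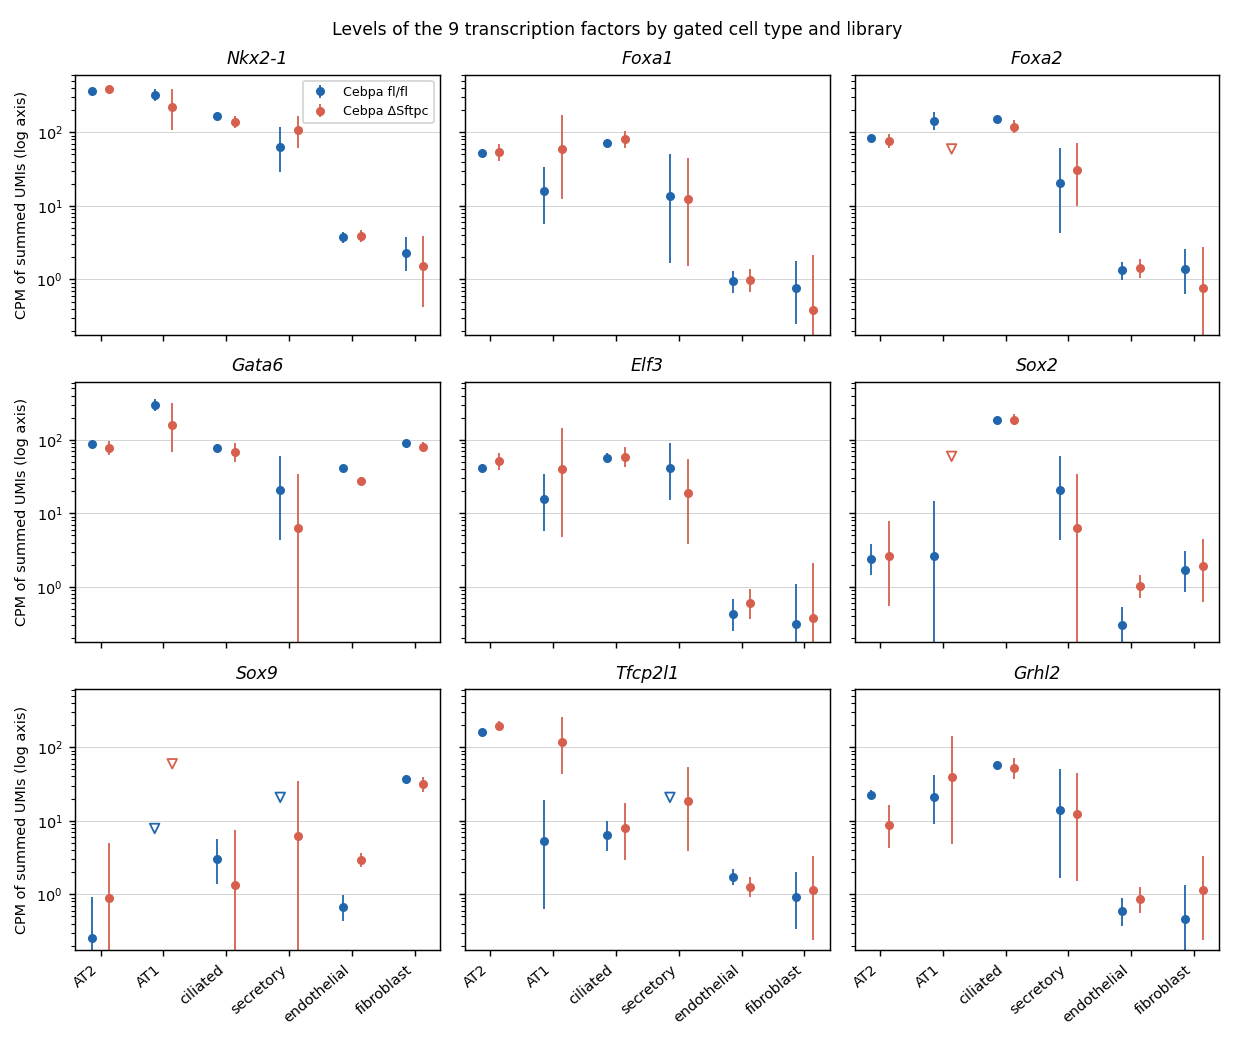
Level of each of the 9 members by gated cell type, as CPM of summed UMIs on a log axis, in the Cebpa fl/fl (blue) and Cebpa ΔSftpc (red) library. Points have exact Poisson 95% intervals, and an open triangle stands at the level of 3 counts where a gate had no UMI. *Tfcp2l1* stands out in AT2 cells (160 CPM), *Sox2* in ciliated cells (186 CPM), *Gata6* in AT1 cells (296 CPM) and *Sox9* in fibroblasts (37.1 CPM).

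Secretory cells were too few to order the types by, with 144534 and 160683 UMIs in the Cebpa fl/fl and Cebpa ΔSftpc libraries. *Nkx2-1* had 9 and 17 UMIs there, *Foxa2* 3 and 5, *Elf3* 6 and 3, *Foxa1* 2 and 2, and *Grhl2* 2 and 2. *Gata6* had 3 and 1, *Sox2* 3 and 1, *Tfcp2l1* 0 and 3, and *Sox9* 0 and 1. Secretoglobins take up most UMIs of these cells and lower the CPM of every other gene. Scaled to the UMIs that were not secretoglobins, *Nkx2-1* was at 188 CPM (86.1–357) and 305 CPM (178–488), intervals that overlap. On this scale *Sox2* was at 62.8 CPM (12.9–183) and 17.9 CPM (0.454–100). *Tfcp2l1* was at 0 CPM (0–77.2) and 53.8 CPM (11.1–157). These counts are too few to place secretory cells in the pattern of either gene.

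Most UMIs of 7 members were in the 4 epithelial gates of the Cebpa fl/fl library, from 79% of the *Foxa1* to 84.5% of the *Elf3* UMIs. For *Gata6* the share was 26.1% and for *Sox9* 2.31%. In the Cebpa ΔSftpc library the shares of the 7 members ran from 37.3% for *Grhl2* to 61.9% for *Tfcp2l1*, with 53.9% for *Nkx2-1*. There, 2287 cells met more than 1 gate, against 612 in the Cebpa fl/fl library, and such cells were left out of every gate. In the Cebpa fl/fl and Cebpa ΔSftpc libraries they held 8.26% and 9.44% of the *Nkx2-1* UMIs. Cells of no gate held 8.94% and 23.6% of these UMIs, and endothelial cells 3.35% and 11.7%. Of the *Sox2* UMIs, 1.99% and 18.5% were in cells of more than 1 gate, and 12.4% and 22.1% in cells of no gate.

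By summed UMIs, most members of AT2 cells differed little between the libraries. *Nkx2-1* was at 364 CPM (2848 UMIs) in the Cebpa fl/fl and 384 CPM (348–422, 432 UMIs) in the Cebpa ΔSftpc cells, a log2 ratio of Cebpa ΔSftpc over Cebpa fl/fl of 0.08 (−0.07 to 0.22). Other choices of cells or of their weight gave ratios from −0.39 to 0.12. The 42 Cebpa ΔSftpc AT2 cells over 10000 UMIs held 400 of the 432 *Nkx2-1* UMIs, so summed levels rest mainly on them. *Foxa1* was at 51.6 and 54.2 CPM (0.07, −0.34 to 0.46) and *Foxa2* at 84.4 and 76.4 CPM (−0.14, −0.49 to 0.18). *Gata6* was at 87.9 and 78.2 CPM (−0.17, −0.51 to 0.15) and *Elf3* at 41.6 and 51.5 CPM (0.31, −0.12 to 0.71). For these 5 genes the interval of the ratio held 0. Other choices of cells moved the ratios, which ran from −0.94 to 0.14 for *Foxa1*, −1.53 to 0.27 for *Foxa2*, −0.84 to 0.35 for *Gata6* and −0.68 to 0.77 for *Elf3*.

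*Tfcp2l1* and *Grhl2* had intervals that left out 0. *Tfcp2l1* was at 160 CPM in the Cebpa fl/fl and 196 CPM (221 UMIs) in the Cebpa ΔSftpc AT2 cells, a log2 ratio of 0.29 (0.08 to 0.50). It depended on depth, since it was −0.76 (−1.76 to 0.15) among cells of 1000 to 10000 UMIs, 49 and 51 in number, and 0.37 (0.15 to 0.58) among the 347 and 42 cells above that. It was also below 0 with cells of other lineage markers kept (−0.11) and with an AT2 gate that did not use *Sftpc* (−0.13). *Grhl2* was at 22.7 CPM (19.5–26.3, 178 UMIs in 131 of 396 cells) and 8.88 CPM (4.26–16.3, 10 UMIs in 10 of 93 cells), a log2 ratio of −1.36 (−2.44 to −0.44). By summed UMIs, it was the one member past 2-fold among the 7 with at least 50 counts. Of all 9185 genes of the AT2 gate with that many counts, 1.73% were 2-fold or more lower and 1.93% 2-fold or more higher, and the 1 of 7 members rested on 10 UMIs in the Cebpa ΔSftpc library.

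The *Grhl2* ratio stayed below 0 in the 13 alternatives that gave a value, from −1.52 to −0.23. Among cells over 10000 UMIs it was −1.52 (−2.76 to −0.51), from 172 and 8 UMIs. Among cells of 1000 to 10000 UMIs it was −0.43, from 6 and 2 UMIs, and with each cell given equal weight −0.23. The 13 alternatives draw on overlapping cells, so their common sign adds no separate evidence. At equal depth, described below, 1.26% (0.411–2.92, 5 of 396) of the Cebpa fl/fl AT2 cells held a *Grhl2* UMI. The Cebpa ΔSftpc share was 1.08% (0.0272–5.85, 1 of 93), and these intervals overlap. The lower summed level was thus not seen in the shares, which rest on too few cells to decide. The median log2 ratio was 0.07 over the 7 members and 0.03 over all genes of the gate, whose quartiles were −0.19 and 0.27.

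In ciliated cells no member was past 2-fold, where 1.43% of 8244 genes were lower and 1.73% higher by that much. *Sox2* was at 186 CPM (171–202) and 188 CPM (158–222), a log2 ratio of 0.02 (−0.26 to 0.29). *Nkx2-1* was at 166 and 140 CPM (−0.24, −0.56 to 0.06), *Foxa1* at 71.8 and 81.3 CPM, *Gata6* at 78.1 and 68 CPM and *Elf3* at 56.7 and 58.6 CPM. *Grhl2* was at 56.7 CPM (169 UMIs) and 52 CPM (39 UMIs), a log2 ratio of −0.12 (−0.67 to 0.38). Among ciliated cells of 1000 to 10000 UMIs it was −1.19 (−3.30 to 0.56), from 11 and 4 UMIs, and the difference between the AT2 and ciliated ratios was not tested. *Foxa2* was at 151 and 120 CPM, and its interval, −0.67 to −0.00, ended at 0. The median was −0.12 over the 7 members and −0.05 over all genes. Other choices of cells or of their weight moved *Foxa1* between −2.59 and 0.30 and *Grhl2* between −1.19 and 0.41. Both were thus past 2-fold under 1 of them, with intervals that held 0. The −2.59 came from cells thinned to 1000 UMIs and weighted equally, with a *Foxa1* UMI in 13 of 179 and 1 of 77 cells.

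**Figure D2:**
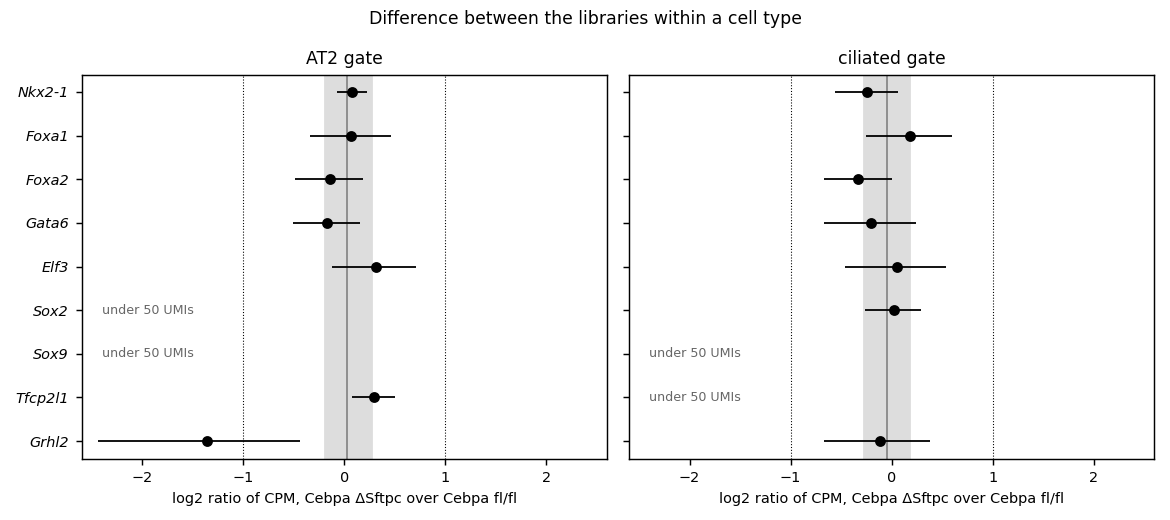
Log2 ratio of CPM, Cebpa ΔSftpc over Cebpa fl/fl, within the AT2 and ciliated gates, with exact 95% intervals of counting error. Points are given for members with at least 50 counts, and the others are marked as under 50 UMIs. In AT2 cells *Grhl2* lies at −1.36 and *Nkx2-1* at 0.08, and in ciliated cells *Sox2* lies at 0.02.

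In AT1 cells the Cebpa ΔSftpc library held only 9 cells with 50414 UMIs. *Nkx2-1* had 123 and 11 UMIs (322 and 218 CPM, log2 −0.56, −1.60 to 0.33) and *Gata6* 113 and 8 UMIs (296 and 159 CPM, log2 −0.90, −2.14 to 0.13). *Foxa2* had 55 UMIs in the Cebpa fl/fl and 0 in the Cebpa ΔSftpc cells, where 3 counts would be 59.5 CPM, against 144 CPM. It was the 1 member past 2-fold of 3 counted, in a gate where 22.7% of 1451 genes were lower and 5.58% higher by that much. All 6 *Tfcp2l1* UMIs of the Cebpa ΔSftpc AT1 gate were in 1 of the 2 cells high in *Sftpb*. The other 7 cells had 4 UMIs of *Nkx2-1*, 4 of *Gata6* and 1 of *Foxa1* in 23050 UMIs, too few to compare.

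Shares of cells with a UMI depend on depth, so each cell was thinned to 1000 UMIs. No gated cell was left out by this, since the gates ask for that many. An *Nkx2-1* UMI was then found in 29.8% (25.3–34.6, 118 of 396) of the AT2 cells from Cebpa fl/fl and 26.9% (18.2–37.1, 25 of 93) of those from Cebpa ΔSftpc mice. Before thinning the shares were 95.2% and 67.7%. In endothelial cells, thinned in the same way, *Nkx2-1* was found in 0.395% and 0.61%. These cells should lack it, and 11 of their 123 Cebpa ΔSftpc UMIs before thinning were in 1 cell. That cell also held 150 *Sftpb* and 530 *Sftpa1* UMIs and is among the 16 cells high in *Sftpb* described below. For the Cebpa fl/fl cells, Poisson counts at the mean thinned level would give 29.4%.

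Other members were found in fewer cells at this depth. *Tfcp2l1* was found in 13.1% and 16.1% of AT2 cells, *Foxa2* in 9.09% and 3.23%, *Gata6* in 8.33% and 4.3%, *Elf3* in 2.53% and 4.3%, and *Grhl2* in 1.26% and 1.08%. *Foxa1* was found in 5.05% of AT2 cells from Cebpa fl/fl mice, and in 0 of 93 from Cebpa ΔSftpc mice, which allows a share with a UMI at this depth of up to 3.23%, or 3 cells. Before thinning, 37.6% of these cells had a *Foxa1* UMI. Its CPM did not differ in this way, so no order is read from that share. For *Grhl2* the CPM differed and the intervals of the shares overlapped, so no order is read from its CPM either. In ciliated cells *Sox2* was found in 14.5% and 9.09%, *Nkx2-1* in 14% and 9.09% and *Foxa2* in 13.4% and 7.79%. *Sox2* was found in 0.0136% and 0.225% of endothelial cells, and *Gata6*, which endothelial cells express at 41 and 27.6 CPM, in 3.54% and 2.62%.

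At 1000 UMIs per cell, at least 1 of the 9 members was found in 53% (48–58) of Cebpa fl/fl AT2 cells and 46.2% (35.8–56.9) of Cebpa ΔSftpc AT2 cells. In ciliated cells the shares were 50.8% (43.3–58.4) and 33.8% (23.4–45.4), and in endothelial cells 4.5% and 4.54%. Without thinning, the median number of members found per AT2 cell was 5 and 3, and per ciliated cell 5 and 1.

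**Figure D3:**
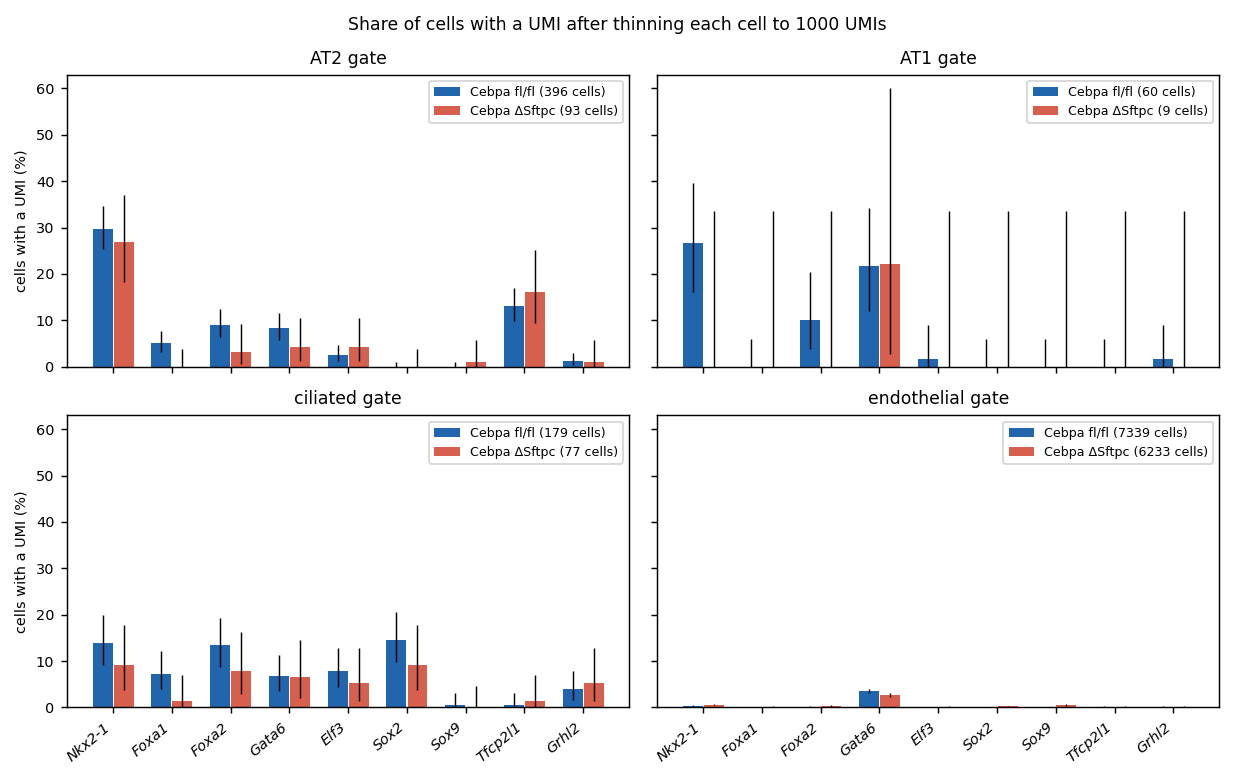
Share of cells with a UMI of each member after each cell was thinned to 1000 UMIs, by gate and library, with Clopper-Pearson 95% intervals and the number of cells in the legend. In AT2 cells *Nkx2-1* reaches 29.8% and 26.9%, and in ciliated cells *Sox2* reaches 14.5% and 9.09%.

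Other genes of the same network were described from 3 lists of genes. Of 44 other lung epithelial transcription factors, 29 had at least 50 counts in AT2 cells. Of these, 1 was 2-fold lower and 1 higher, with a median log2 ratio of 0.11. Of all genes of the gate, 1.73% were lower and 1.93% higher by that much, with a median of 0.03. The lower one was *Hopx*, a homeodomain cofactor of AT1 cells, with 206 and 12 UMIs (−1.30, −2.28 to −0.47), and its ratio was 1.54 with cells of other lineage markers kept. The higher one was *Tbx3*, a T-box factor, with 50 and 22 UMIs (1.61, 0.82 to 2.36). *Hopx* was at 26.3 and 10.7 CPM in the AT2 gate and at 471 and 343 CPM in endothelial cells. With free RNA subtracted, no ratio in AT2 cells was at hand for *Hopx* and *Tbx3*. The part of free RNA in both was not tested. *Tbx2* was at 0.76 and the nuclear receptor gene *Nr2f2* at 0.68. In ciliated cells 26 were counted, of which only *Cebpd*, a relative of *Cebpa*, was past 2-fold, with 75 and 41 UMIs (1.12). The median was −0.07. Of all genes there, 1.43% were lower and 1.73% higher by that much, with a median of −0.05. Of 9 counted in AT1 cells, 3 were lower and 1 higher, where 22.7% and 5.58% of all genes were.

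Of 12 alveolar genes that NKX2-1 and FOXA factors are known to act on, all had enough counts in AT2 cells and none was past 2-fold. Their median was −0.04, near the 0.03 of all genes. *Lamp3*, *Abca3*, *Slc34a2* and *Napsa* of this list are markers of the AT2 gate, which also asks for *Sftpc*. Their ratios, and so the median, are in part set by the gate. The mucin gene *Muc1* was at 0.25, the claudin gene *Cldn18* at −0.26, the aquaporin gene *Aqp5* at −0.21 and the surfactant gene *Sftpa1* at −0.14. In ciliated cells, 3 of 7 counted were lower, where 1.43% of all 8244 genes were. They were *Cldn18* with −1.50, *Cxcl15* with −1.20 and *Sftpa1* with −1.17. AT2 cells, which make these transcripts, were 4.17% and 2.88% of the cells without the limit on other lineages, and 3.74% and 0.793% with it. *Cldn18* was higher in AT1 cells, at 5680 CPM against 897 CPM in AT2 cells of the Cebpa fl/fl library. The AT1 gate held 60 and 9 cells. With free RNA subtracted, *Cldn18* was at −1.43 in ciliated cells, and no ratio was at hand for *Cxcl15* and *Sftpa1*. *Cxcl15* was also lower in endothelial cells (38.9 and 14.3 CPM) and in fibroblasts (34 and 8.41 CPM). The part of free RNA in *Cxcl15* and *Sftpa1* was not tested further. In AT1 cells 1 of 7 was lower and 4 higher, beside 22.7% and 5.58% of all genes, with a median of 5.66, and the 2 cells high in *Sftpb* were in that gate.

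Of 18 epithelial junction and keratin genes that GRHL2 or ELF3 are known to act on, 16 were counted in AT2 cells, and none was past 2-fold. Their median was −0.07. The lowest were the keratin genes *Krt7* with −0.69, *Krt19* with −0.60 and *Krt18* with −0.39, and *Rab25*, a gene of vesicle transport, with −0.38. With the AT2 gate without *Sftpc*, *Krt19* was at 1.96 (1.71 to 2.21), *Krt7* at 1.09 (0.85 to 1.34) and *Krt18* at 0.47, so that 2 of them were past 2-fold upward. Among cells of 1000 to 10000 UMIs, *Krt7*, *Krt19* and *Rab25* were above 0. In ciliated cells 16 were counted, none was past 2-fold, and the median was −0.11. In AT1 cells 11 were counted, of which 2 were higher, where 5.58% of all genes were, and the 2 cells high in *Sftpb* were in that gate too.

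Genes with the pattern most like that of a member were found over 15 points, each a gated type of at least 50 cells in 1 library, among 7982 genes. The points share libraries, depth and free RNA, so Pearson's r of log2(CPM + 10) is a description. *Nkx2-1* was nearest to *Irx2* (0.988), *Prss8* (0.988) and *Sec14l4* (0.982). *Foxa1* and *Elf3* were nearest to each other (0.998), followed for *Foxa1* by *Rasef* (0.997) and *Smim6* (0.986) and for *Elf3* by *Rasef* (0.994) and *Myo5c* (0.989). *Foxa2* was nearest to *Rab25* (0.996), *Epcam* (0.994) and *Slc44a3* (0.993). The gates outside the epithelium asked for cells without an *Epcam* UMI, so the value of *Epcam* is in part set by the gates. *Tfcp2l1* was nearest to *Muc1* (0.992), *Sfta2* (0.991) and *Lgi3* (0.987). *Sox2* was nearest to *Cfap126* (0.998), which is a marker of the ciliated gate, *1700088E04Rik* (0.997) and *Kif27* (0.996). *Grhl2* was nearest to *2610528J11Rik* (0.981), *Tspan1* (0.972) and *2010300C02Rik* (0.965). *Gata6*, with *P4ha2* (0.943), *Gas6* (0.923) and *Pls3* (0.921), had the lowest values. *Sox9* was nearest to *Tnfrsf19* (0.989), *Gm43050* (0.987) and *Ndrg2* (0.985). Its levels at the points of Cebpa fl/fl pericytes (60.6 CPM) and smooth muscle (57.7 CPM) came from 1 and 2 cells, so these values rest on few cells.

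The AT2 gate asks for *Sftpc*, so it cannot hold cells that make other surfactant transcripts and lack that one. After the values of the gates had been seen, cells with at least 0.5% *Sftpb* and under 1% *Sftpc* were therefore looked for. There were 0 such cells in the Cebpa fl/fl and 16 in the Cebpa ΔSftpc library, with 191871 UMIs in all and from 1161 to 34683 UMIs each. Limits of 0.2% and 1% *Sftpb* gave 23 and 10 Cebpa ΔSftpc cells, and 0 Cebpa fl/fl cells. With cells that carry markers of other lineages kept, there were 40 Cebpa ΔSftpc and 0 Cebpa fl/fl cells. Of the 16 cells, 12 met no gate, 2 were the AT1 cells high in *Sftpb*, 1 met the endothelial gate and 1 met more than 1 gate.

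*Cebpa* had 0 UMIs in these 16 cells, where 3 counts would be 15.6 CPM. At the level of the Cebpa fl/fl or the Cebpa ΔSftpc AT2 gate, 29.9 or 26.4 UMIs would stand among 191871. *Sftpc* was at 276 CPM, against 194000 and 165000 CPM in the AT2 gate, and the lysozyme gene *Lyz2* at 109 against 16900 and 19000 CPM. Other AT2 transcripts were found at unequal levels, given here against the Cebpa ΔSftpc AT2 gate. *Sftpa1* was at 30800 against 25000 CPM, *Napsa* at 4210 against 2310 and *Sftpd* at 3900 against 4350. Lower levels were those of *Lamp3* (584 against 1530), *Abca3* (281 against 721), *Lpcat1* (266 against 1210) and *Cxcl15* (995 against 6360). The AT1 gene *Ager* was at 2850 and *Krt8* at 667 CPM, against 182 and 176 CPM of *Krt8* in the AT2 gate. Since *Sftpb* and *Sftpc* chose the cells, their levels are no finding.

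**Figure D4:**
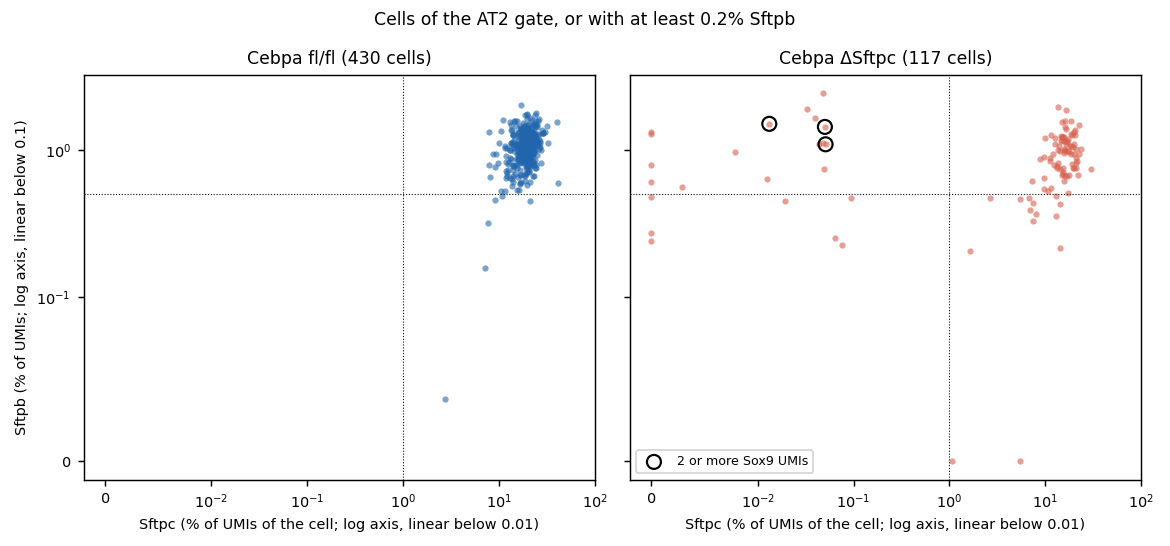
*Sftpb* against *Sftpc* as percent of the UMIs of a cell, on log axes that are linear near 0, for the cells of the AT2 gate or with at least 0.2% *Sftpb* in the Cebpa fl/fl (430 cells) and Cebpa ΔSftpc (117 cells) libraries. A group of cells with *Sftpb* above 0.5% and *Sftpc* under 1% stands to the left in the Cebpa ΔSftpc library alone, and circles mark cells with 2 or more *Sox9* UMIs.

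*Nkx2-1* was found in these cells at 516 CPM (419–628), 99 UMIs in 11 of the 16 cells. One of them, of 34683 UMIs, also met the secretory limit with 3412 *Scgb1a1* UMIs and held 34 of the *Nkx2-1* UMIs. Without it the level was 414 CPM (319–527), against 384 CPM (348–422) in the Cebpa ΔSftpc AT2 gate. The same cell held 295 of the 546 *Ager* UMIs, and without it *Ager* was at 1600 CPM, against 576 CPM in that gate. *Foxa2* was at 83.4 CPM (16 UMIs), *Foxa1* at 46.9 CPM (9 UMIs) and *Elf3* at 36.5 CPM (7 UMIs), near the AT2 levels of the same library of 76.4, 54.2 and 51.5 CPM. Against the Cebpa ΔSftpc AT2 gate, the intervals of *Nkx2-1* (log2 0.43, 0.10 to 0.75) and *Sox2* (2.97, 0.40 to 5.74, from 4 and 3 UMIs) left out 0. Those of *Gata6*, *Grhl2* and *Tfcp2l1* did so too, as did that of *Sox9*, described below. *Gata6* was at 141 CPM (27 UMIs) against 78.2 CPM (log2 0.85, 0.17 to 1.48), and *Grhl2* at 36.5 CPM (7 UMIs) against 8.88 CPM (log2 2.04, 0.41 to 3.58). *Tfcp2l1* was at 115 CPM (22 UMIs in 6 cells) against 196 CPM (log2 −0.78, −1.48 to −0.14). Without the cell high in *Scgb1a1*, the intervals of *Nkx2-1* (−0.29 to 0.49), *Grhl2* (−0.06 to 3.52) and *Tfcp2l1* (−1.36 to 0.04) held 0. *Sox2* then had too few UMIs for a ratio. Against the Cebpa fl/fl AT2 gate, with all 16 cells, *Grhl2* (log2 0.68, −0.65 to 1.75) and *Tfcp2l1* (−0.48, −1.16 to 0.12) had intervals that held 0. Those of *Nkx2-1* (0.20 to 0.79), *Gata6* (0.07 to 1.23) and *Sox2* (1.09 to 4.69) left out 0 there too.

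*Sox9* differed most from the AT2 gate. It had 47 UMIs, 245 CPM (180–326), in 3 of the 16 cells, against 1 UMI in 93 Cebpa ΔSftpc and 2 UMIs in 396 Cebpa fl/fl AT2 cells. The 3 cells had 33, 10 and 4 *Sox9* UMIs among 22685, 25888 and 13737 UMIs, so the level rests on few cells and chiefly on 1. With a limit of 1% *Sftpb* it was 373 CPM, and without the limit on other lineages 210 CPM (48 UMIs). *Sox2* had 4 UMIs, 3 of them in the cell high in *Scgb1a1*. No explanation of these cells was tested.

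**Figure D5:**
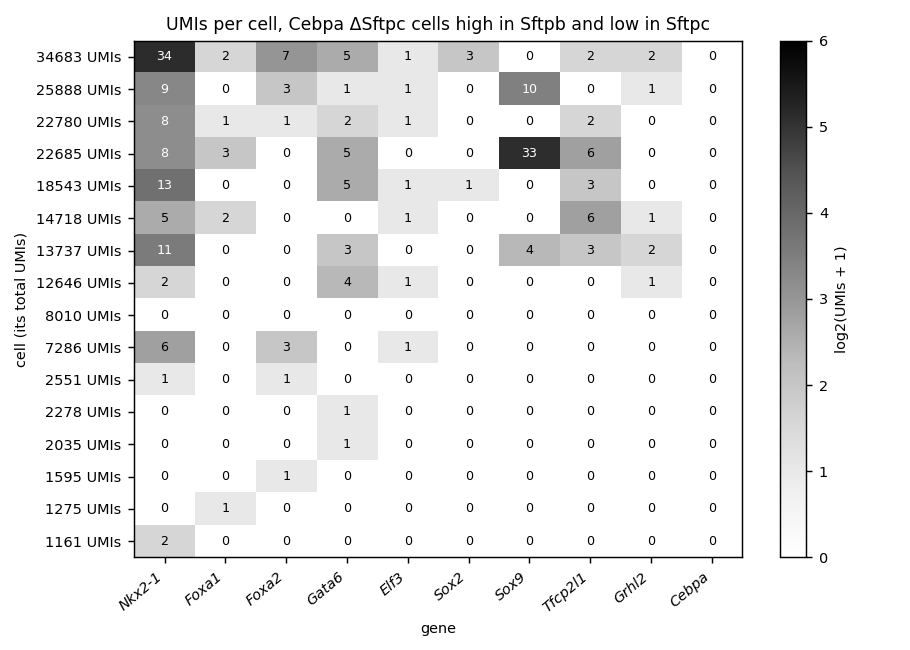
UMIs of the members and of *Cebpa* in each of the 16 Cebpa ΔSftpc cells with at least 0.5% *Sftpb* and under 1% *Sftpc*. Shades are log2(UMIs + 1), with the total UMIs of a cell at the left. *Cebpa* is empty in all 16 cells, *Nkx2-1* is found in 11, and *Sox9* in 3.

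Outside the epithelium, *Gata6* was at 89.1 and 80.3 CPM in fibroblasts and at 41 and 27.6 CPM in endothelial cells (1610 and 869 UMIs, log2 −0.57, −0.69 to −0.45). *Sox9* was at 37.1 and 31.4 CPM in fibroblasts. In endothelium, chosen after the values were seen, *Sox9* had 26 UMIs in 21 of 7339 and 93 UMIs in 75 of 6233 cells (0.663 and 2.95 CPM, log2 2.16, 1.51 to 2.84). Without the cells of 2 or more *Sox9* UMIs it was at 0.459 and 2.04 CPM. After thinning it was found in 0.0409% and 0.513% of these cells. The part of free RNA in this level was not tested.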

How the data were processed

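The authors aligned 10x 3′ reads to mm10 with Cell Ranger (6.1.1 in the submitters' notes, 5.0.0 in the file header) and deposited raw UMI counts, whole numbers for each gene in each cell. Here, cells with at least 200 genes, at most 20% mitochondrial counts and at least 1000 UMIs were gated on raw marker counts, and cells meeting more than 1 gate were left out. No doublet caller was run. Counts were summed per gate and library and given as CPM with exact Poisson intervals. Log2 ratios had exact conditional binomial intervals, with a sum of 0 raised to 3 counts. The planned floor of 3 for sums of 1 or 2 was kept only where all genes were counted. Ratios were counted past 2-fold among genes with at least 50 counts. Shares had Clopper-Pearson intervals, also after thinning to 1000 UMIs. The code was tested on simulated data. Named genes were the members, gate markers, *Cebpa*, up to 4 genes of each list and gate with the largest ratio, and the 3 genes nearest to each member. The members and lists were chosen with earlier results of these data known. Gene positions are those of GENCODE for GRCm38. Python 3.11.15, numpy 2.4.6, pandas 2.3.3, scipy 1.17.1 and matplotlib 3.10.9 were used.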

Additional observations from a re-analysis of the deposited data

How the results depend on the processing

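With 1 library per genotype, nothing here separates genotype from library, and AT2 and ciliated cells of the Cebpa ΔSftpc library were shallow, which limits what could be seen for genes of few UMIs. No paired analysis was possible because each genotype had 1 library and no result came from a test. The median log2 ratio of the members in AT2 cells, 0.07, was −0.32 among cells of 1000 to 10000 UMIs, −0.29 with an AT2 gate that did not use *Sftpc* and −0.32 with cells of other lineage markers kept. In ciliated cells, −0.12 became −0.59 with cells weighted equally, each thinned to 1000 UMIs. With genes of at least 20 counts, 396 genes in AT1, 463 in AT2 and 423 in ciliated cells were 2-fold higher, in place of 81, 177 and 143, and 276 in place of 118 were lower in ciliated cells. With stricter gates, 147 were higher in AT1 and 80 in ciliated cells. Among Cebpa fl/fl cells of at least 3000 UMIs, the shares of AT1, AT2 and ciliated cells were 0.414%, 4.62% and 2.14%.

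Some log2 ratios of named genes whose interval had left out 0 turned sign, and the cause was not tested. Among cells of 1000 to 10000 UMIs these were, in AT2 cells, *Tfcp2l1* (−0.76), *Aqp5* (0.07), *Krt19* (0.16), *Krt7* (1.38) and *Rab25* (0.04), and in ciliated cells *Foxa2* (0.65) and *Sox4* (−1.05). With every cell of another lineage marker left out, they were *Krt19* in AT2 cells (0.15) and *Foxa2* (0.14) and *Ocln* (0.53) in ciliated cells. With such cells kept, they were *Tfcp2l1* (−0.11), *Hopx* (1.54) and *Muc1* (−0.15) in AT2 cells. With the AT2 gate without *Sftpc*, they were *Tfcp2l1* (−0.13), *Krt18* (0.47), *Krt19* (1.96) and *Krt7* (1.09). With stricter gates they were *Foxp1* (−0.82) and *Krt8* (−0.01) in AT1 cells. With cells weighted equally they were *Muc1* in AT2 (−0.02) and *Sftpa1* in ciliated cells (0.22). Ratios of members whose interval had held 0 changed sign too. Among AT2 cells of 1000 to 10000 UMIs these were *Nkx2-1* (−0.32), *Foxa1* (−0.84), *Foxa2* (0.27), *Gata6* (0.35) and *Elf3* (−0.26). Among ciliated cells of that depth they were *Foxa1* (−0.54), *Gata6* (0.85), *Elf3* (−0.05) and *Sox2* (−0.42). *Nkx2-1* in AT2 cells ran from −0.39 to 0.12 over 14 settings. The AT2 gate without *Sftpc*, the windows of UMIs and the limits on *Sftpb* were chosen after seeing the data.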
